A study of Mus musculus with 18 samples.

Results

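The comparison described here is that of SKG with WT NKT2 cells of the mouse thymus, 3 libraries against 3. These are 6 of the 18 RNA-seq libraries of the series, chosen by their labels and not by any measured value, and the other 12 hold the NKT1 and NKT17 cells of the same genotypes. SKG mice carry a point mutation in the SH2 domain of Zap70 that leaves a hypomorphic kinase, and the study bred both genotypes as F3 mice from F2 offspring of BALB/cJ and SKG parents. No animal was treated, each group comes from 3 independent experiments per the labels, and the age of the mice and the number pooled per library are not given in the sources used here. Cells were taken from iNKT-enriched thymocytes by fluorescence-activated sorting as CD1d-αGC tetramer+, CD49a-, Sdc-1-, ICOS high, CD4 high and TCRβ high. Because these proteins set the gate, the transcripts of Itga1, Sdc1, Icos and Cd4 serve below as checks and not as results.

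Invariant NKT (iNKT) cells are T cells that recognise lipids bound to CD1d with a nearly fixed T cell receptor (TCR) α chain. NKT2 cells are the thymic iNKT subset that expresses the transcription factor PLZF (Zbtb16) at a high level together with GATA3, and that makes IL-4 without prior priming. Zap70 is the kinase that docks on the phosphorylated CD3 and ζ chains of the engaged TCR and relays the signal to LAT and SLP-76, and from there to calcium, Ras-ERK and NF-κB. NKT2 cells are known for a strong TCR signal during development, and their IL-4 acts on neighbouring thymocytes.

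The libraries held 4784160 to 6011808 counts in WT and 4391029 to 6018709 in SKG NKT2 cells, and the deposited values are whole read counts per gene. Levels are given below as CPM, the read counts scaled to a common library size with TMM factors, in the order of replicates 1, 2 and 3. They are not divided by gene length, so levels are compared between groups for 1 gene and not between genes. The first principal component of the 6 libraries (36.4% of the variance) placed WT at -68.5 to -52.2 and SKG at 56.9 to 58.6. The sex-linked genes split the libraries another way, and 1 library of each genotype stood apart. Xist was at 385, 0.699 and 0 CPM in WT and 0.881, 333 and 0 CPM in SKG, and the Y-linked Ddx3y was at 0.204, 100.1 and 71.6 CPM in WT and 100.2, 0.392 and 102 CPM in SKG, so WT replicate 1 and SKG replicate 2 were high for Xist and near 0 for Ddx3y.

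Zap70 itself, on chromosome 1 at 36818695 to 36839663 of build NCBIM37 (mm9), was at 483, 574 and 502.8 CPM in WT and 394, 360.2 and 436 CPM in SKG NKT2 cells. Every SKG library lay below every WT library, with log2 fold change -0.39, SE 0.12, adjusted p 0.0378, but the difference was under the 1.5-fold minimum. The mutation changes the protein and not the transcript's presence, so this level checks no label.

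The identity of the sorted cells was looked at first. Zbtb16 was at 173, 184 and 226 CPM in WT and 229.7, 154 and 196 CPM in SKG, and the groups overlapped (log2 fold change -0.01, SE 0.19, adjusted p 0.991). Its mean was 194 ± 28.0 CPM in WT NKT2 against 36.7 ± 6.78 CPM in WT NKT1 and 162 ± 54.0 CPM in WT NKT17 cells (mean ± SD, n = 3 each). Il4, the signature cytokine of the subset, was at 110.2, 175 and 152 CPM in WT and 119, 75.6 and 93.9 CPM in SKG, again with overlap (log2 fold change -0.60, SE 0.29, adjusted p 0.247), against 15.3 ± 9.04 CPM in WT NKT1 and 25.7 ± 4.94 CPM in WT NKT17 cells. With a token of the library titles fitted as a block, Il4 was called lower (log2 fold change -0.83, adjusted p 0.048). Gata3 did not mark the subset at the transcript level, since its mean was 269.5 ± 26.0 CPM in WT NKT2, 268 ± 34.5 CPM in WT NKT1 and 268 ± 44.9 CPM in WT NKT17 cells. It fell in SKG NKT2 cells, from 261, 249 and 299 CPM to 162, 171 and 184 CPM, with log2 fold change -0.64, SE 0.13, adjusted p 0.00208, and it was not called without WT replicate 3 (adjusted p 0.019, fold under 1.5).

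The transcripts of the gate gave the following values. Icos, which is part of the gate, was at 1130, 1070 and 1128 CPM in WT and 861, 665 and 680.5 CPM in SKG, with log2 fold change -0.59, SE 0.13, adjusted p 0.00493, and it was not called without SKG replicate 2, SKG replicate 3, WT replicate 1 or WT replicate 3 (adjusted p 0.0186 to 0.0396, fold under 1.5). Cd4 was at 396, 362 and 383 CPM and 238, 199.5 and 225 CPM, with log2 fold change -0.79, SE 0.31, adjusted p 0.163. It was called with the 6 libraries fitted alone (adjusted p 6.93e-05) and with the block by title token (adjusted p 0.0517). Itga1 had 6, 0 and 5 counts in WT and 1, 1 and 0 in SKG, and Sdc1 had at most 6 counts in any of the 6 libraries. Of 10 NKT2 markers 3 were called lower (Gata3, Icos and Lef1) and none higher, with a median of -0.62, and their summed level was 4225 to 4956 CPM in WT and 2676 to 3631 CPM in SKG. The summed level of 10 NKT1 markers was 316 to 461 CPM in WT and 220 to 348 CPM in SKG, and that of 10 NKT17 markers was 26.0 to 27.0 CPM in WT and 38.5 to 55.0 CPM in SKG. In bulk samples, fewer cells of one type and less RNA per cell cannot be told apart, here and for each gene below.

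Genes were called where the Benjamini-Hochberg adjusted p of edgeR's quasi-likelihood test was under 0.1 and the fold change at least 1.5. Of 11118 genes tested, 884 were called in SKG against WT NKT2 cells (7.95% of those tested), 434 of them higher in SKG (3.90%) and 450 lower (4.05%). The falls reached further than the rises. At 4-fold or more, 71 genes were higher and 143 lower, and at 16-fold or more 14 were higher and 41 lower. The median log2 fold change of all genes was -0.004. Among the called genes, 35 that were lower had at most 3 counts in every SKG library, and 23 that were higher had at most 3 counts in every WT library. The 6 libraries carry a title token, and 2 tokens occur in both genotypes. Within each of these, 427 of 434 called rises and 450 of 450 called falls had the same direction. The same libraries gave the calls, and 867 of the 884 called genes had wholly separate groups. The shared direction was therefore largely fixed in advance and is no separate support.

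**Figure D1:**
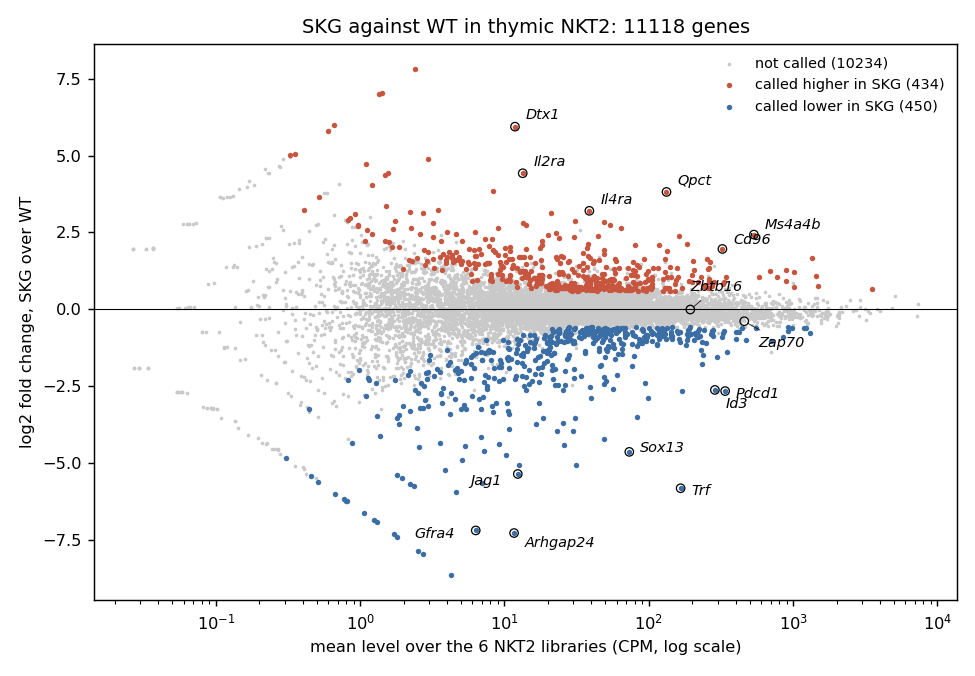
Each point is 1 of 11118 genes, with its mean level over the 6 NKT2 libraries (CPM, log scale) on the x axis and the log2 fold change of SKG over WT on the y axis. The 434 genes called higher are red and the 450 called lower are blue, Dtx1, Il2ra and Qpct lead the rises at moderate levels, Trf and Sox13 lie far below the line, and Zap70 and Zbtb16 lie close to it.

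The largest rises among genes with at least 50 counts on average in the higher group included receptors for cytokines and for death ligands. Dtx1 encodes Deltex1, an E3 ligase known from Notch signalling and T cell anergy, and lies on chromosome 5 at 121130211 to 121161936. It had 2 counts in each WT library and 117, 117 and 132 counts in the SKG libraries, a ratio of 65.8 with an exact 95% counting interval of 30.0 to 181 (adjusted p 5.98e-09). Il2ra (CD25, the α chain of the IL-2 receptor, chromosome 2 at 11564419 to 11614818) was at 0.818, 0.175 and 2.42 CPM in WT and 21.6, 17.0 and 38.2 CPM in SKG, with log2 fold change 4.42, SE 0.43, adjusted p 1.1e-06. Il4ra (the IL-4 receptor α chain, chromosome 7 at 132695785 to 132722986) rose from 5.11, 7.86 and 9.54 CPM to 54.8, 87.9 and 67.1 CPM (log2 fold change 3.20, SE 0.24, adjusted p 9e-09). In all 3 genes the SKG libraries lay wholly above the WT ones, which the choice of the largest changes required. Of all genes tested, 30.13% had wholly separate groups.

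Qpct encodes glutaminyl-peptide cyclotransferase, which forms pyroglutamate at the amino end of peptides, and lies on chromosome 17 at 79451246 to 79489583. Its levels were 18.4, 14.8 and 19.4 CPM in WT and 235, 288 and 219 CPM in SKG, and it had the smallest adjusted p of the comparison (log2 fold change 3.82, SE 0.15, adjusted p 4.67e-14). Tnfrsf25 (death receptor 3, the receptor of TL1A) was at 9.61, 5.77 and 6.95 CPM against 41.8, 69.3 and 51.4 CPM, with log2 fold change 2.87, SE 0.24, adjusted p 4.24e-08. For Fasl, the Fas ligand, WT libraries were at 10.0, 16.1 and 15.7 CPM and SKG libraries at 112, 66.2 and 104 CPM (log2 fold change 2.75, SE 0.19, adjusted p 2.69e-09). None of these groups overlapped, again by that choice. The surface receptors Gpr34 and Cd72 rose by 3.15 and 2.80 on the log2 scale, and Gclc (the catalytic subunit of the enzyme that starts glutathione synthesis) by 2.84.

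A few rises stood out by their small adjusted p at high levels. Ms4a4b, a tetraspan-type membrane protein of T cells, was at 164, 134 and 204 CPM in WT and 990.1, 833 and 883 CPM in SKG (log2 fold change 2.43, SE 0.16, adjusted p 2.03e-09). Cd96, a receptor of the nectin-binding family shared by T and NK cells, went from 126, 133 and 138 CPM to 479, 577 and 489 CPM (log2 fold change 1.96, SE 0.11, adjusted p 1.39e-10). Rarg, a retinoic acid receptor, was at 60.3, 60.1 and 66.1 CPM and 175, 212 and 199 CPM (log2 fold change 1.65, SE 0.11, adjusted p 1.94e-09). In each case the 3 SKG libraries agreed closely and stood well clear of WT.

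Several of the largest falls took a gene from a clear level to almost no reads. Arhgap24, a GTPase-activating protein for Rac on chromosome 5 at 102910410 to 103326955, had 124, 100 and 165 counts in WT and 2, 0 and 0 counts in SKG, a WT over SKG ratio of 180 with a counting interval of 49.6 to 1494. Gfra4, a receptor subunit for a GDNF-family ligand, had 122, 38 and 38 counts in WT and 1, 0 and 0 in SKG. Kirrel3, an adhesion protein of the immunoglobulin superfamily, had 67, 94 and 68 counts against 2, 0 and 2. Gm1337 had 63, 36 and 49 counts against 1, 0 and 1. Their adjusted p values were 2.05e-07, 0.000439, 0.000517 and 1.26e-06. The counting interval covers counting error only, since reads without molecular identifiers are not independent molecules.

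Other falls left a measurable level. Trf, the iron carrier transferrin, was at 389, 346 and 244 CPM in WT and 5.51, 6.46 and 5.30 CPM in SKG, and its groups lay far apart (log2 fold change -5.82, SE 0.39, adjusted p 2.87e-07). Sox13, a transcription factor known from γδ T cells (chromosome 1 at 135278880 to 135320954), fell from 181, 138 and 104 CPM to 7.71, 5.29 and 4.17 CPM (log2 fold change -4.64, SE 0.34, adjusted p 1.33e-07). Jag1 is a ligand of Notch receptors and Hey1 a transcriptional repressor induced by Notch. Jag1 was at 36.2, 23.9 and 12.4 CPM against 0.441, 0.392 and 0.803 CPM (log2 fold change -5.36, SE 0.55, adjusted p 3.52e-06), and Hey1 at 104, 30.6 and 47.4 CPM against 1.10, 3.13 and 1.12 CPM (log2 fold change -5.08, SE 0.67, adjusted p 5.17e-05). For both genes the WT libraries spread widely, with replicate 1 highest, and none came near the SKG values. Rprm, Zfp536 and Rgs16 fell by 4.74, 5.07 and 4.91 on the log2 scale, and each had at least 1 SKG library at 0.

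The falls with the smallest adjusted p left a measurable level too. Fam129a, also called Niban, was at 378, 383 and 331 CPM in WT and 98.9, 107 and 109 CPM in SKG (log2 fold change -1.80, SE 0.12, adjusted p 1.05e-09). Slc29a1, the nucleoside transporter ENT1, fell from 455, 419.9 and 449 CPM to 143, 167 and 144 CPM (log2 fold change -1.54, SE 0.12, adjusted p 1.33e-08). Fut7, a fucosyltransferase that builds selectin ligands, was at 67.5, 40.4 and 33.8 CPM and 3.08, 3.92 and 3.85 CPM (log2 fold change -3.69, SE 0.30, adjusted p 2.38e-08). Eng (endoglin, a co-receptor of the TGF-β family) was at 269, 349.9 and 259 CPM in WT against 45.1, 52.3 and 40.8 CPM in SKG (log2 fold change -2.67, SE 0.21, adjusted p 3.59e-08), and Ttc39c fell by 2.34 on the log2 scale.

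**Figure D2:**
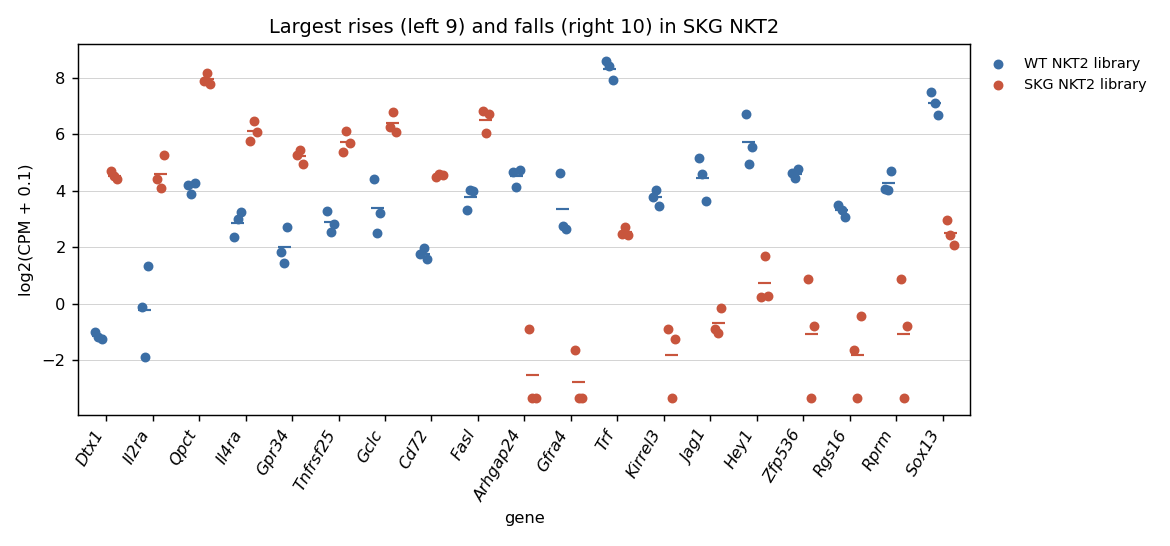
Points are single NKT2 libraries (WT blue, SKG red) and bars are group means, as log2(CPM + 0.1), for 9 of the 10 largest called rises and the 10 largest called falls with at least 50 counts on average in the higher group. The WT and SKG points of each gene do not overlap, which the choice of these genes required. Several of the falling genes have SKG libraries at 0 counts, drawn at the lowest level.

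The lists below are described by how many of their tested members were called, to be read against the 3.90% and 4.05% of all genes that were called higher and lower, and by their median log2 fold change beside the -0.004 of all genes. Among 14 genes of the TCR complex, its coreceptors and associated surface proteins, 4 were higher and 1 was lower (median 0.14). The 4 that rose are associated proteins, and none is a chain of the TCR complex or a CD4 or CD8 coreceptor. Thy1, a surface glycoprotein of thymocytes, rose from 60.9, 35.6 and 72.4 CPM to 183, 241 and 208 CPM (log2 fold change 1.90, SE 0.32, adjusted p 0.00139). Trat1, which encodes the TCR-interacting adaptor TRIM, went from 14.5, 16.9 and 21.5 CPM to 99.1, 129 and 104 CPM (log2 fold change 2.64, SE 0.24, adjusted p 7.64e-08). Cd2, an adhesion receptor for CD48, rose from 36.6, 42.1 and 76.1 CPM to 251, 267 and 294 CPM (log2 fold change 2.38, SE 0.33, adjusted p 0.000325), and Cd1d1, the lipid-presenting molecule, by 0.73 on the log2 scale. The member that fell was Cd247, the ζ chain on which Zap70 docks, from 1403, 1997 and 1555 CPM to 1039, 1032 and 844 CPM (log2 fold change -0.77, SE 0.12, adjusted p 0.000213).

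Of 42 proximal kinases and adaptors, 7 were called higher and 1 lower, with a median of 0.29. Themis, a thymocyte protein that tunes TCR signalling, was at 40.3, 37.0 and 58.7 CPM in WT and 135, 159.9 and 129 CPM in SKG (log2 fold change 1.64, SE 0.30, adjusted p 0.00102). Rasgrp1, the diacylglycerol-responsive activator of Ras, was at 61.1, 41.8 and 55.5 CPM and 89.8, 118 and 129.9 CPM (log2 fold change 1.09, SE 0.17, adjusted p 0.000213). The adaptors Grap and Sit1 rose by 1.06 and 0.98 and the Rap activator Rasgrp2 by 0.97 on the log2 scale, and the other members called higher were Sos1 and Malt1. Sla2, an adaptor that lowers TCR signalling, fell from 205, 172 and 145 CPM to 85.7, 85.2 and 92.8 CPM (log2 fold change -0.98, SE 0.15, adjusted p 0.000115).

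Of 26 genes that restrain TCR signalling, 6 were called higher and 1 lower, with a median of 0.34. Dtx1, described above, is one of the 6. Cish, an SH2 protein induced by cytokines, was at 17.0, 9.79 and 16.2 CPM in WT and 78.2, 63.4 and 81.2 CPM in SKG (log2 fold change 2.38, SE 0.23, adjusted p 3.09e-07). Dgka, a kinase that removes diacylglycerol, went from 229.9, 199 and 241 CPM to 451, 420.5 and 504.7 CPM (log2 fold change 1.04, SE 0.12, adjusted p 2.82e-06). Ubash3a (STS-2) and Ptpn22, both phosphatase-family proteins that act on the TCR pathway, rose by 1.37 and 0.70 on the log2 scale. Rnf128 (the E3 ligase GRAIL) fell by 1.49, from a low level of 3.88, 5.24 and 4.53 CPM, and was not called without SKG replicate 2 or WT replicate 2 (adjusted p 0.121 to 0.167).

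Among 31 transcription factors and regulators known to be induced by the TCR, 5 were called higher and 3 lower, and the median was 0.60. The rises included 4 genes of the NF-κB system. Nfkb2 was at 37.2, 42.1 and 43.2 CPM in WT and 66.5, 69.9 and 76.9 CPM in SKG (log2 fold change 0.80, SE 0.13, adjusted p 0.00033), and Relb, its partner, at 58.2, 53.8 and 62.2 CPM and 105, 95.7 and 105 CPM (log2 fold change 0.81, SE 0.13, adjusted p 0.000153). The inhibitors Nfkbia and Nfkbie rose by 0.75 and 0.58, and Nfkbie, whose fold lies close to the minimum, was not called with DESeq2, RLE or upper-quartile scaling, no filter or a mean of at least 50 counts (adjusted p 0.0066 to 0.0291, fold under 1.5), nor without SKG replicate 1, SKG replicate 3, WT replicate 1 or WT replicate 3 (adjusted p 0.0461 to 0.0945, fold under 1.5). Tox, which is needed for the CD4 lineage in the thymus, fell from 284, 262 and 314 CPM to 184, 144 and 129 CPM (log2 fold change -0.91, SE 0.18, adjusted p 0.00237), and Ikzf2 (Helios) fell from 55.8, 68.0 and 43.2 CPM to 18.3, 7.05 and 12.2 CPM (log2 fold change -2.16, SE 0.39, adjusted p 0.0014). Junb had SKG values of 1041, 1282 and 1523 CPM against 700.2, 418 and 1007 CPM in WT and did not pass the test (adjusted p 0.277).

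Feedback genes of the ERK pathway moved in both directions, with 2 of 16 called higher and 1 lower. Spry2, an inhibitor of receptor signalling to ERK, dropped from 49.0, 55.8 and 43.5 CPM to 1.54, 1.96 and 3.21 CPM (log2 fold change -4.41, SE 0.41, adjusted p 2.82e-06). Dusp6, the phosphatase of ERK, rose from 12.9, 10.5 and 8.57 CPM to 42.9, 33.1 and 27.6 CPM (log2 fold change 1.70, SE 0.29, adjusted p 0.000395). In the 22 calcium and NFAT genes, 1 was higher and 2 were lower. Nfatc1 fell from 465, 381 and 406 CPM to 251, 180.3 and 236 CPM (log2 fold change -0.91, SE 0.14, adjusted p 0.00017), the calcium channel gene Orai3 fell by 0.61, and the calcium release receptor Itpr2 rose by 0.74 on the log2 scale. Orai3 was not called without SKG replicate 2 or WT replicate 1 (adjusted p 0.0372 to 0.0406, fold under 1.5).

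Inhibitory receptors split evenly, with 3 of 16 called higher and 3 lower. Pdcd1 (PD-1), on chromosome 1 at 95934884 to 95949130, was at 671, 558 and 521 CPM in WT and 93.6, 84.0 and 98.8 CPM in SKG, far below (log2 fold change -2.66, SE 0.23, adjusted p 1.15e-06). Lag3 fell from 56.6, 41.4 and 32.7 CPM to 7.27, 9.01 and 4.98 CPM (log2 fold change -2.62, SE 0.42, adjusted p 0.000317) and Cd200, a ligand of an inhibitory receptor, from 45.2, 46.5 and 59.8 CPM to 7.27, 9.98 and 14.3 CPM (log2 fold change -2.25, SE 0.54, adjusted p 0.0106). On the other side, beside Cd96, the gene of VISTA (listed as 4632428N05Rik) rose by 0.68 and the collagen receptor Lair1 by 1.59, the latter at an adjusted p of 0.089. The VISTA gene was not called without WT replicate 3 (adjusted p 0.0249, fold under 1.5), and Lair1 without SKG replicate 1, SKG replicate 2, SKG replicate 3, WT replicate 1 or WT replicate 2 (adjusted p 0.141 to 0.281).

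Of 20 costimulatory receptors and ligands, 3 were called higher and 4 lower, counting Icos of the gate among the latter. Tnfsf11 (RANKL) fell from 93.0, 99.8 and 96.7 CPM to 19.2, 14.9 and 13.7 CPM (log2 fold change -2.61, SE 0.27, adjusted p 5.8e-07). Tnfrsf9 (4-1BB) was at 51.9, 45.1 and 60.6 CPM in WT and 19.8, 21.5 and 17.5 CPM in SKG (log2 fold change -1.42, SE 0.28, adjusted p 0.00167), and Tnfsf4 (OX40 ligand) fell by 1.72 on the log2 scale. Cd40lg, the CD40 ligand, rose from 189, 196 and 203 CPM to 386, 323 and 353 CPM (log2 fold change 0.85, SE 0.10, adjusted p 3.49e-06). Of 10 SLAM family and SAP genes, Cd2 alone was called, and Slamf6, at 518, 434 and 585 CPM against 375, 256 and 345 CPM, did not pass (adjusted p 0.232).

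NK receptors had the lowest median of the lists, -1.41 over 23 members tested, of which 9 were called lower and 1, Klrb1f, higher. Their levels were low in both genotypes. Of the 32 list genes in the count table, 17 had at most 3 counts in each of the 6 NKT2 libraries. The expression filter ran over all 18 libraries, so a member could be tested on its NKT1 level, and the median includes such genes. Klra5 was at 40.3, 29.5 and 16.5 CPM in WT and 8.81, 15.1 and 8.03 CPM in SKG (log2 fold change -1.43, SE 0.30, adjusted p 0.00659), against a mean of 758 CPM in WT NKT1 cells. Klra1 fell from 25.6, 6.47 and 7.28 CPM to 1.10, 0.196 and 0.803 CPM (log2 fold change -4.17, SE 0.67, adjusted p 0.000991) and Klrk1 (NKG2D) from 13.3, 7.17 and 5.66 CPM to 1.98, 2.15 and 1.12 CPM (log2 fold change -2.31, SE 0.55, adjusted p 0.019). Klra7 had 11, 5 and 11 counts in WT and 0 in every SKG library, at least 2.83-fold lower against a floor of 3 counts per library. Klra genes are related in sequence, so reads that match more than 1 of them may have been lost or misplaced in counting. The NKT1 marker list, which shares Klrb1c and Klrd1 with this one, also had a median below 0 (-0.49), and the part of NKT1 cells in these falls was not tested. Klrb1c, whose groups overlapped, was not called without SKG replicate 2, SKG replicate 3 or WT replicate 2 (adjusted p 0.123 to 0.175). Klrd1 was not called without SKG replicate 1, SKG replicate 2, SKG replicate 3 or WT replicate 1 (adjusted p 0.171 to 0.292).

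In the type 2 programme 3 of 19 genes were called higher and 5 lower. Besides Gata3, Maf, a factor that drives Il4 and Il21 transcription, fell from 57.8, 76.9 and 64.7 CPM to 50.4, 35.2 and 31.8 CPM (log2 fold change -0.77, SE 0.20, adjusted p 0.02), and was not called without SKG replicate 2, SKG replicate 3 or WT replicate 2 (adjusted p 0.101 to 0.126). A pair of cytokines was singled out after their values were seen. Il13 was at 18.2, 15.4 and 24.4 CPM in WT and 7.05, 4.70 and 8.83 CPM in SKG (log2 fold change -1.49, SE 0.48, adjusted p 0.0609), and Il21 had 31, 17 and 29 counts in WT and 0, 0 and 5 in SKG (adjusted p 0.0405). Ccr8, a chemokine receptor of type 2 cells, rose instead, from 56.8, 41.6 and 37.2 CPM to 217, 198 and 159 CPM (log2 fold change 2.08, SE 0.26, adjusted p 3.23e-05), as did Il4ra. Il4 itself, as given above, overlapped between the genotypes.

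Of 26 type 1 and cytotoxic genes, 6 were called higher and 1 lower, with a median of 0.42. Fasl, given above, was one of the 6. Tnf went from 4.29, 6.82 and 5.01 CPM to 16.3, 12.3 and 13.0 CPM (log2 fold change 1.36, SE 0.26, adjusted p 0.00129), Stat4 from 2.45, 1.05 and 0.970 CPM to 5.29, 4.11 and 13.8 CPM (log2 fold change 2.46, SE 0.51, adjusted p 0.00603), and Il18r1 rose by 0.60 on the log2 scale. Perforin (Prf1) had 2, 1 and 0 counts in WT and 3, 10 and 12 in SKG, and it was not called without SKG replicate 2, SKG replicate 3, WT replicate 1, WT replicate 2 or WT replicate 3 (adjusted p 0.101 to 0.243). Il18r1 was not called without SKG replicate 2 or WT replicate 1 (adjusted p 0.0474 to 0.0703, fold under 1.5). Cst7, which encodes the protease inhibitor cystatin F, fell from 319, 397 and 335 CPM to 123, 123 and 125 CPM (log2 fold change -1.50, SE 0.13, adjusted p 6.5e-08). Gzma was at no more than 3.07 CPM in any of the 6 libraries and did not pass.

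Of 17 genes of the IL-17 programme, 4 were called higher and 2 lower, with a median of 0.85. Rora, which encodes a nuclear receptor of IL-17-producing cells, rose from 48.2, 32.3 and 25.7 CPM to 83.2, 102 and 80.6 CPM (log2 fold change 1.33, SE 0.19, adjusted p 5.53e-05). Aqp3 rose by 1.98 on the log2 scale. Blk, a Src-family kinase expressed by NKT17 cells, went the other way, from 7.56, 4.54 and 3.72 CPM to 2.42, 0.587 and 0.642 CPM (log2 fold change -2.16, SE 0.49, adjusted p 0.0102).

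Lineage transcription factors were called at a high rate in both directions, 6 higher and 10 lower of 41 (median -0.01). Id3, which encodes an inhibitor of E proteins that the TCR induces (chromosome 4 at 135699412 to 135701670), fell from 458, 584 and 440.2 CPM to 76.9, 63.2 and 99.7 CPM (log2 fold change -2.62, SE 0.24, adjusted p 1.02e-06). Lef1, an HMG-box factor of early iNKT cells, was at 344, 281 and 399 CPM against 162, 126 and 189 CPM (log2 fold change -1.10, SE 0.19, adjusted p 0.000495). Myb fell from 87.3, 53.5 and 58.5 CPM to 11.9, 11.9 and 10.3 CPM (log2 fold change -2.54, SE 0.52, adjusted p 0.00451), and Hhex from 45.6, 37.9 and 29.8 CPM to 6.83, 5.68 and 8.03 CPM (log2 fold change -2.45, SE 0.34, adjusted p 3.5e-05). Vdr, the vitamin D receptor, dropped from 122, 84.9 and 69.8 CPM to 5.07, 5.48 and 4.34 CPM (log2 fold change -4.22, SE 0.62, adjusted p 0.0006). For all of these the 3 SKG libraries lay below the lowest WT library. Satb1, a chromatin organiser, was higher in SKG, at 791, 824 and 732 CPM against 564, 295 and 287 CPM (log2 fold change 1.03, SE 0.23, adjusted p 0.0106), and WT replicate 1 stood above the other WT libraries.

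The cytokine receptor list, which also holds the cytokine genes Il21 and Csf2, had 9 of 28 called higher and 2 lower, with a median of 0.52. The 2 lower were the receptor gene Il2rb and the cytokine gene Il21. Beside Il2ra and Il4ra, the α chain of the IL-7 receptor (Il7r) rose from 475, 569 and 472 CPM to 1135, 1037 and 941 CPM (log2 fold change 1.04, SE 0.10, adjusted p 2.57e-07). Il21r was at 46.2, 47.2 and 48.7 CPM in WT and 129, 116 and 125 CPM in SKG (log2 fold change 1.38, SE 0.12, adjusted p 4.9e-08), and Tgfbr2 rose by 0.68 on the log2 scale. The shared β chain of the IL-2 and IL-15 receptors, Il2rb, fell from 240.4, 208 and 248 CPM to 143, 139.6 and 163 CPM (log2 fold change -0.64, SE 0.11, adjusted p 0.000439). Of 22 genes of the CISH, SOCS and PIM group and their partners, 4 were called higher and none lower. Beside Cish and Stat4 these were the kinase Pim1, at 7.77, 4.37 and 11.5 CPM in WT and 36.1, 35.4 and 47.4 CPM in SKG (log2 fold change 2.32, SE 0.37, adjusted p 0.0007), and Bcl2, at 19.8, 5.24 and 9.86 CPM and 34.1, 24.3 and 54.0 CPM (log2 fold change 1.72, SE 0.44, adjusted p 0.0294). Bcl2 was not called without SKG replicate 3 or WT replicate 3 (adjusted p 0.111 to 0.129), and Tgfbr2 without SKG replicate 3 (adjusted p 0.00447, fold under 1.5).

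In the BCL-2 family 3 of 16 genes were higher and 2 lower. The pro-apoptotic Bik rose from 2.04, 2.45 and 2.91 CPM to 14.3, 13.9 and 18.6 CPM (log2 fold change 2.64, SE 0.28, adjusted p 7.69e-07) and Bcl2l11 (BIM) by 0.91 on the log2 scale, the latter not called without SKG replicate 1, SKG replicate 2, SKG replicate 3 or WT replicate 2 (adjusted p 0.105 to 0.297). Pmaip1 (NOXA) fell from 7.56, 6.29 and 15.8 CPM to 0.441, 0.783 and 1.77 CPM (log2 fold change -3.23, SE 0.79, adjusted p 0.0118). Bcl2a1a, one of several near-identical A1 genes, had 16, 7 and 21 counts in WT and 0 in SKG, at least 4.56-fold lower against the same floor.

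Chemokine receptors and trafficking genes were called higher in 8 of 33 and lower in 2, with a median of 0.44. Cxcr6, the receptor of CXCL16, went from 518, 681 and 631 CPM to 1272, 1442 and 1507 CPM (log2 fold change 1.21, SE 0.12, adjusted p 4.27e-07). The integrin chain Itgb7 was at 408, 414 and 403 CPM in WT and 863, 1077 and 994 CPM in SKG (log2 fold change 1.26, SE 0.12, adjusted p 1.33e-07), and Ltb (lymphotoxin β) at 448, 610.1 and 499 CPM and 1099, 1382 and 1285 CPM (log2 fold change 1.27, SE 0.12, adjusted p 1.25e-07). Cd44, the hyaluronan receptor, rose by 1.06 on the log2 scale. Ccr10 fell from 98.3, 77.8 and 34.9 CPM to 8.15, 11.3 and 8.99 CPM (log2 fold change -2.88, SE 0.37, adjusted p 2.35e-05).

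Satb1 is also a marker of conventional naive T cells. Of 8 such markers tested, 2 were called higher, Satb1 among them, and the summed level of the list was 779 to 1036 CPM in WT and 1655 to 1710 CPM in SKG. Ccr7, at 256, 268 and 263 CPM in WT and 429, 397 and 414 CPM in SKG, did not pass (adjusted p 0.289), although it was called with the 6 libraries fitted alone (adjusted p 6.91e-05), where Satb1 was not (adjusted p 0.127). The defining CD8 gene Cd8a had 3 counts in 1 WT library and 0 in the other libraries. The part of naive T cells in the rises given here was not tested. Of the other cell types, B cell, myeloid, red cell and thymic stroma markers had no call by edgeR among 1, 3, 0 and 5 genes tested, nor by DESeq2, and 1 of these genes had an unadjusted p under 0.05. The α and β globin genes of red cells and Pax5 of B cells had 0 counts in all 6 libraries. Markers of γδ T cells, with 4 tested, gave 2 called lower, Sox13 and Maf. Of 7 NK cell markers Prf1 alone was called, of 4 double-positive thymocyte markers Cd1d1 alone, of 8 regulatory T cell markers Il2ra (higher) and Ikzf2 (lower), and of 10 genes of recent iNKT precursors Id3 and Myb (both lower).

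**Figure D3:**
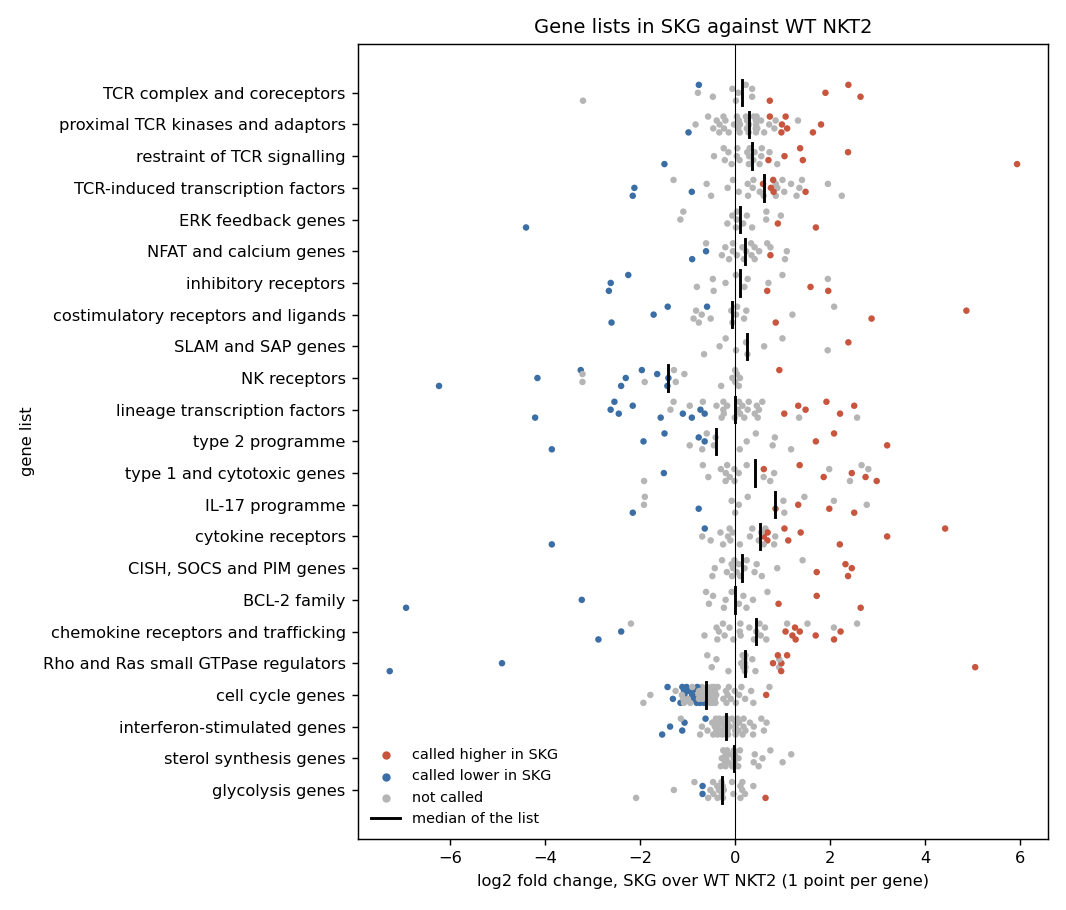
Each point is 1 gene of a list, placed at its log2 fold change of SKG over WT NKT2 cells, with called rises in red, called falls in blue, other genes in grey and the median of the list as a black bar. The NK receptors and cell cycle genes have medians below 0 (-1.41 and -0.62), and cytokine receptors and the IL-17 programme lie above it (0.52 and 0.85).

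Cell cycle genes were mostly lower in SKG NKT2 cells. Of 63 tested, 15 were called lower and 1 higher, 55 had a log2 fold change below 0, and the median was -0.62. The lower genes were mostly of DNA replication, among them 5 subunits of the MCM helicase (Mcm2, Mcm3, Mcm5, Mcm6 and Mcm7), the ribonucleotide reductase subunit Rrm1 and the replication licensing factor Cdc6. Mcm6 was at 337, 303 and 308 CPM in WT and 124, 166 and 159 CPM in SKG (log2 fold change -1.08, SE 0.15, adjusted p 3.7e-05). Mcm7 went from 244, 235 and 254 CPM to 132, 118 and 118 CPM (log2 fold change -1.0, SE 0.14, adjusted p 4.74e-05), and Mcm5 from 247, 258 and 249.8 CPM to 106, 100.2 and 132 CPM (log2 fold change -1.15, SE 0.19, adjusted p 0.000299). Stmn1, a regulator of microtubules in dividing cells, fell from 360.1, 270.2 and 354 CPM to 119, 119 and 157 CPM (log2 fold change -1.31, SE 0.21, adjusted p 0.000368). In each the lowest WT library stood above the highest SKG library. The member that rose, Cdkn1b, encodes the cell cycle inhibitor p27 and was singled out after its values were seen, at 20.4, 28.5 and 27.0 CPM in WT and 40.3, 42.5 and 36.9 CPM in SKG (log2 fold change 0.65, SE 0.16, adjusted p 0.0123). The proliferation marker Mki67, at 37.4, 22.7 and 26.0 CPM against 23.6, 18.4 and 17.8 CPM, did not pass the test (adjusted p 0.338).

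**Figure D4:**
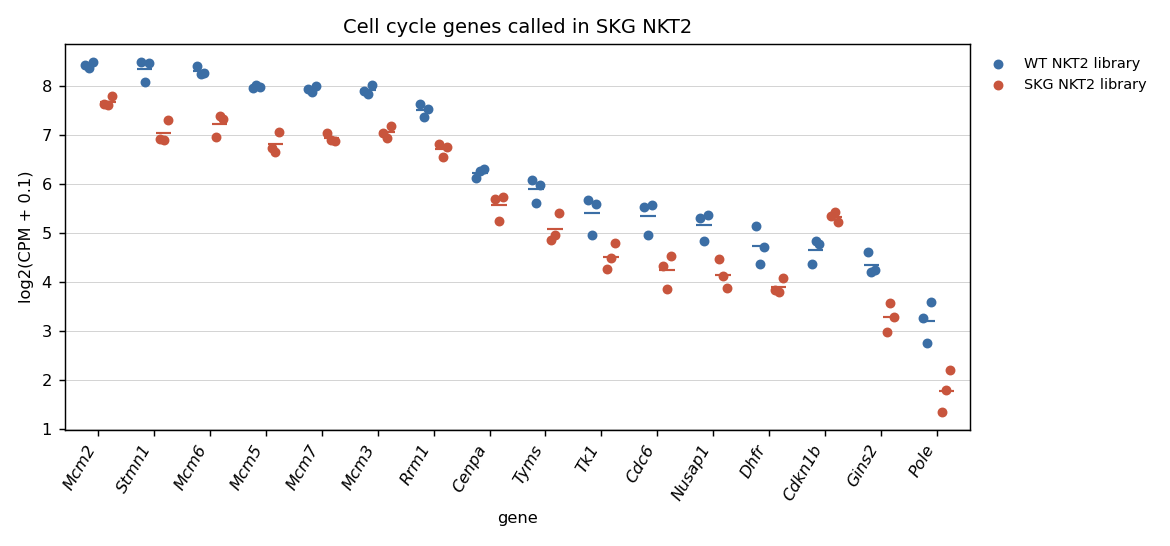
Points are single NKT2 libraries (WT blue, SKG red) and bars are group means, as log2(CPM + 0.1), for the 16 called genes of the cell cycle list in order of their WT level. The SKG points lie below the WT points for 15 genes, and Cdkn1b is the exception.

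Promoters of replication genes are known targets of E2F factors, and the stretches of the MCM and Cdc6 promoters that hold such letters are shown because these genes all fell. The 250 bases before the start were taken from the RefSeq promoter table on build GRCm38.p6 and read on the gene's strand. They were searched on both strands for TTTCCCGC and TTTGGCGC, which share no overlapping match here, and matches are in capitals. The coordinates are chr11:98907901-98908150 (plus strand) for Cdc6, chr8:75109259-75109508 (plus) for Mcm5, chr1:128359706-128359955 (minus) for Mcm6 and chr5:138171884-138172133 (minus) for Mcm7.
Cdc6: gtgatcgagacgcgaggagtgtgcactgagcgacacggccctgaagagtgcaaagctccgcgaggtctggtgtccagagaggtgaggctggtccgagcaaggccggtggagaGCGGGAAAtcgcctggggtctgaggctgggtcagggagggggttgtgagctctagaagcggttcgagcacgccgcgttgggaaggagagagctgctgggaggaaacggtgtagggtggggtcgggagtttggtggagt
Mcm5: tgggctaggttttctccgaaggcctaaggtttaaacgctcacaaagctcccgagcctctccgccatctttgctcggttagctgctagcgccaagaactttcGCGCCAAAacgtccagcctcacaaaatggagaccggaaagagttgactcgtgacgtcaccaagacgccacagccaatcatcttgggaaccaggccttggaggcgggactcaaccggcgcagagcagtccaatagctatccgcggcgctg
Mcm6: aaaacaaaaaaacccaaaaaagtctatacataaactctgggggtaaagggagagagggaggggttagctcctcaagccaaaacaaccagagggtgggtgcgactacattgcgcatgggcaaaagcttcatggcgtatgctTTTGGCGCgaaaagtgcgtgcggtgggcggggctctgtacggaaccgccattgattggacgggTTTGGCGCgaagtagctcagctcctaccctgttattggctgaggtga
Mcm7: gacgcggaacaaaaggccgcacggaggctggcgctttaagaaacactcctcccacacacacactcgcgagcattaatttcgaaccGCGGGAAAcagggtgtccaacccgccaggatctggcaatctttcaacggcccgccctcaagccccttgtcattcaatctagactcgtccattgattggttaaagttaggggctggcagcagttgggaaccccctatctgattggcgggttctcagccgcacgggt

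A match begins 138 bases before the start in Cdc6, 149 in Mcm5, 110 and 47 in Mcm6 and 165 in Mcm7. Of the 15 cell cycle genes called lower, 11 had an entry in the table and 4 held a match. Over all tested genes, 8954 of 11118 (80.5%) had an entry and 2.75% of these held one. Because fewer than 80% of the 15 genes had an entry, these shares are not compared. A match is a description of letters and not a binding site.

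Interferon-stimulated genes had 5 of 50 called lower and none higher (median -0.20). Oas3, an enzyme that senses double-stranded RNA, fell from 89.7, 90.2 and 92.2 CPM to 32.4, 53.6 and 39.3 CPM (log2 fold change -1.12, SE 0.21, adjusted p 0.00115), and Ly6e from 1430, 1343 and 1558 CPM to 928, 924 and 956 CPM (log2 fold change -0.62, SE 0.10, adjusted p 0.000213). The call on Ly6e was lost without WT replicate 3 (adjusted p 0.00249, fold under 1.5). Oasl1, also among the 5, was not called without SKG replicate 1, SKG replicate 3, WT replicate 2 or WT replicate 3 (adjusted p 0.187 to 0.286). Dhx58, another of them, was not called without SKG replicate 1 or WT replicate 2 (adjusted p 0.1 to 0.106). Of 26 glycolysis genes 1 was higher and 2 were lower (median -0.29), with Tpi1 at 386, 344 and 300.4 CPM against 207, 211 and 221 CPM (log2 fold change -0.69, SE 0.12, adjusted p 0.00033). In edgeR 14 of them had an unadjusted p under 0.05, 12 lower and 2 higher. The other calls were Eno1 (higher) and Pfkfb3 (lower). Eno1 was not called without SKG replicate 2, SKG replicate 3, WT replicate 2 or WT replicate 3 (adjusted p 0.121 to 0.146), and Pfkfb3 without SKG replicate 2, SKG replicate 3 or WT replicate 2 (adjusted p 0.102 to 0.155). None of 25 sterol synthesis genes was called by edgeR or by DESeq2, and 4 had an unadjusted p under 0.05 in edgeR. Regulators of small GTPases gave 6 higher and 2 lower of 24, and beside the genes above these included Dock10 and Rasa3, which rose by 0.97 and 0.90 on the log2 scale. Of 16 stress and dissociation genes Zfp36 alone was called, at a log2 fold change of 0.68, and not without SKG replicate 1, SKG replicate 2, SKG replicate 3, WT replicate 1 or WT replicate 2 (adjusted p 0.115 to 0.201). Within 5 Mb of Zap70, 2 of 53 genes tested were called.

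The same contrast was then set beside those in NKT1 and NKT17 cells, which use other libraries. Within each genotype, the NKT1, NKT2 and NKT17 libraries carry the same title tokens, and the labels do not say what the token marks. The subsets may therefore be linked, so shared calls may not be independent, and the tests fitted the group only. SKG differed from WT in 364 genes in NKT1 and 931 in NKT17 cells. Of the NKT2 calls, 92 were called in the same direction in NKT1 cells (10.4% of the NKT2 and 25.3% of the NKT1 calls) and 18 in the opposite one. With NKT17 cells 345 were shared in direction (39.0% of the NKT2 and 37.1% of the NKT17 calls) and 9 were opposite. Whether an effect differed was tested by interaction terms. The effect in NKT2 minus that in NKT1 was called in 430 genes (3.87% of those tested), and that in NKT2 minus NKT17 in 244 (2.19%). Among the 884 NKT2 calls, 274 differed from NKT1 and 138 from NKT17, and 74 (40 higher and 34 lower in SKG) were larger than in both by these tests.

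Genes whose change was larger in NKT2 cells included receptors that are described above. Il2ra, which rose by 4.42 on the log2 scale in NKT2, had a log2 fold change of -1.25 in NKT1 and 0.64 in NKT17 cells (difference from NKT1 5.67, SE 0.54, adjusted p 2.99e-06 and difference from NKT17 3.79, SE 0.53, adjusted p 0.00055). In WT its mean was 1.14 CPM in NKT2 against 27.6 CPM in NKT1 and 95.8 CPM in NKT17 cells, and in SKG NKT2 cells it was 25.6 CPM. Il4ra had 0.16 in NKT1 and 1.29 in NKT17 cells (difference from NKT1 3.04, SE 0.31, adjusted p 2.38e-06 and difference from NKT17 1.91, SE 0.32, adjusted p 0.00158). Qpct was at 0.04 and 1.56 (difference from NKT1 3.78, SE 0.19, adjusted p 1.35e-11 and difference from NKT17 2.25, SE 0.19, adjusted p 2e-07). Tnfrsf25 was at 0.46 and 0.28, and neither was called in those subsets (difference from NKT1 2.41, SE 0.32, adjusted p 8.56e-05 and difference from NKT17 2.59, SE 0.30, adjusted p 6.04e-05). F2r, the thrombin receptor PAR1, rose in NKT2 cells from 167, 131 and 144 CPM to 361, 406 and 356 CPM, with 0.23 in NKT1 and 0.11 in NKT17 cells (difference from NKT1 1.12, SE 0.14, adjusted p 3e-05 and difference from NKT17 1.24, SE 0.14, adjusted p 2.8e-05). The WT means in NKT1 and NKT17 cells were 326.6 and 103.8 CPM for Qpct and 126 and 24.62 CPM for Il4ra. For Tnfrsf25 they were 21.39 and 214.9 CPM, and for F2r 782.3 and 1066 CPM. All lay above the WT NKT2 means, which were 17.55, 7.504, 7.442 and 147.3 CPM for these genes in turn. The SKG NKT2 means were 247.6, 69.95, 54.18 and 374.4 CPM.

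The change also differed between subsets for genes that fell. Slc29a1 had log2 fold changes of 0.39 in NKT1 and -0.70 in NKT17 cells beside -1.54 in NKT2 cells (difference from NKT1 -1.93, SE 0.17, adjusted p 2.67e-07 and difference from NKT17 -0.84, SE 0.17, adjusted p 0.00818). Ttc39c, a tetratricopeptide repeat protein, went in opposite directions, with -2.34 in NKT2 and 2.22 in NKT17 cells (difference from NKT17 -4.55, SE 0.28, adjusted p 6.74e-10). For Il4, the change of -0.60 in NKT2 cells differed from the 1.65 in NKT1 cells (difference from NKT1 -2.25, SE 0.43, adjusted p 0.00542). For Mcm6 the change also differed from NKT1 cells (difference from NKT1 -0.86, SE 0.21, adjusted p 0.0253) but the test against NKT17 cells did not pass (difference from NKT17 -0.30, SE 0.21, adjusted p 0.703).

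A set of 56 genes was called in the same direction in all 3 subsets, 22 higher and 34 lower. Pdcd1, Id3, Spry2 and Lag3 are among the lower and Thy1, Trat1, Cish and Dusp6 among the higher. Pdcd1 had log2 fold changes of -2.88 in NKT1, -2.66 in NKT2 and -3.38 in NKT17 cells, and Id3 of -1.99, -2.62 and -3.94. For Pdcd1 neither difference between subsets passed the test (difference from NKT1 0.22, SE 0.33, adjusted p 0.853 and difference from NKT17 0.72, SE 0.32, adjusted p 0.409). Themis rose in all 3 subsets too, by 7.25 in NKT1, 1.64 in NKT2 and 3.02 in NKT17 cells, and the rise was smaller in NKT2 than in NKT1 cells (difference from NKT1 -5.61, SE 0.79, adjusted p 0.000239). Its WT NKT1 mean was 0.118 CPM, so the fold change there depends on how the fit treats counts near 0.

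**Figure D5:**
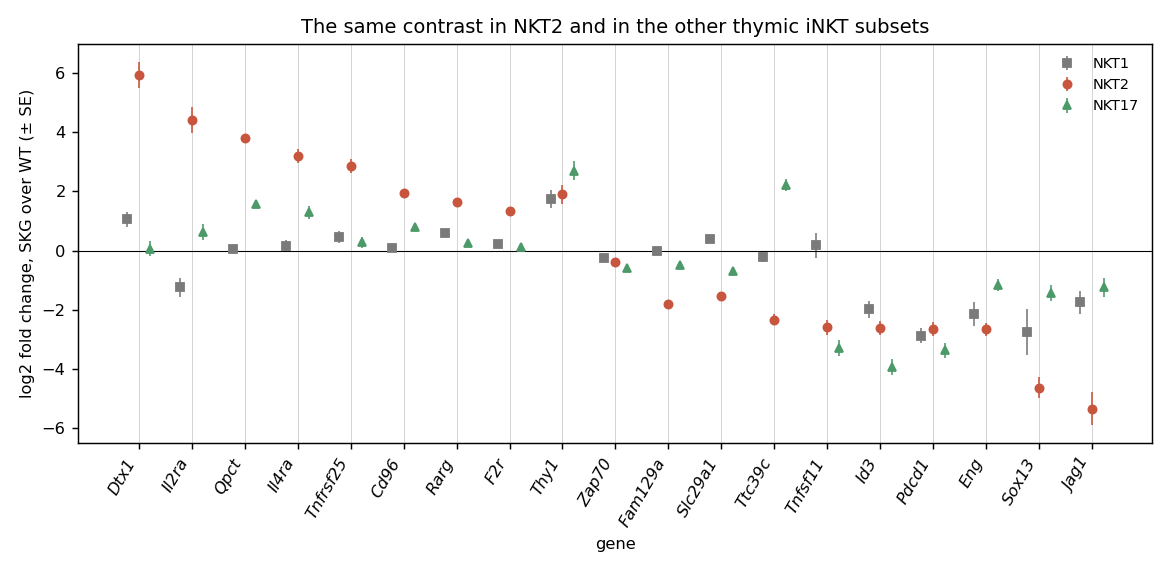
Points are log2 fold changes of SKG over WT (bars, SE of the edgeR fit) in NKT1 (squares), NKT2 (circles) and NKT17 cells (triangles), 3 libraries against 3 in each. Dtx1, Il2ra and Qpct stand above 3 in NKT2 cells alone, Pdcd1 lies between -3.38 and -2.66 in all 3 subsets, and Ttc39c lies on opposite sides of 0 in NKT2 and NKT17 cells.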

How the data were processed

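RNA-seq libraries were made from sorted thymic NKT1, NKT2 and NKT17 cells of both genotypes, and the 6 NKT2 libraries are compared here. The counts were deposited by the authors as whole reads per gene symbol. The study aligned short single-end reads of poly-A cDNA to mm9 with TopHat, removed low-complexity reads and counted with htseq-count in union mode. The submitters' processing notes name Bowtie 1.0.0, TopHat 1.4.1 and HTSeq 0.7.1. The annotation and the strand setting are not given in the sources used here, so reads of genes that overlap on opposite strands cannot be told apart. A further 2 columns belong to no listed sample and were left out, and every row has a gene name.

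Genes were filtered with filterByExpr by group (11118 of 15582 kept), scaled by TMM (factors 0.928 to 1.07) and fitted over all 18 libraries and 6 groups with the robust quasi-likelihood model of edgeR 4.0.16 under R 4.3.3, with 12 residual degrees of freedom. The common biological coefficient of variation was 21.1%. Tests were two-sided, with Benjamini-Hochberg adjustment over all genes tested. A gene was called at an adjusted p under 0.1 and a fold of at least 1.5, and standard errors were derived from the fold change and the F statistic of its test. The model was also tested on simulated data. Replicate libraries differed beyond sampling noise in a chi-square comparison of their counts and were all kept. Whether they came from separate animals is not stated beyond independent experiments, so p-values measure the spread between these libraries.

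The comparison, the 39 gene lists (708 of 725 written genes matched) and the rule for named genes were chosen with earlier results of these data known. Named genes are the 10 largest called rises and falls with non-overlapping groups and at least 50 counts on average in the higher group, the 5 rises and 5 falls with the smallest adjusted p, Zap70, Zbtb16, Il4 and Gata3, up to 6 called members of each list by adjusted p (with the 3 highest where fewer than 3 were called), the 5 smallest adjusted p of each interaction among NKT2 calls, and the 5 genes with most counts whose other group had at most 3 in every library. A few genes that these rules or lists hold are not reported here. Other genes named are said to have been chosen after their values were seen, or are named by a count or as background. Gene positions are from GENCODE M1 on NCBIM37. The alternatives were DESeq2 1.42.0, RLE and upper-quartile scaling, no filter, a mean of at least 50 counts, the 6 libraries alone, a block by title token, each library left out, an adjusted p under 0.05 and no fold minimum. A fit of the title tokens of both genotypes alone was added after the data were seen.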

Additional observations from a re-analysis of the deposited data

Results flagged for a closer look

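The SKG effect in NKT2 cells differed from that in another subset, by the interaction test of edgeR at the thresholds used above, for 85 of the genes that were chosen by the naming rule or given with values above. The values below are differences of log2 fold changes, and no explanation of them was tested. A positive value means that the log2 fold change in NKT2 cells was above that in the other subset. It can therefore mark a gene that fell less in NKT2 cells, such as Lag3 (-2.62 in NKT2 and -7.92 in NKT1 cells). Likewise a negative value can mark a smaller rise.

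Among genes that rose in SKG NKT2 cells, Dtx1 differed by 4.88 from NKT1 and by 5.88 from NKT17 cells, and Il2ra by 5.67 and 3.79. Qpct differed by 3.78 and 2.25, Il4ra by 3.04 and 1.91, Tnfrsf25 by 2.41 and 2.59, and Cd72 by 3.1 and 1.86. Ms4a4b differed by 2.54 and 1.05, Cd96 by 1.88 and 1.16, Rarg by 1.05 and 1.4, and F2r by 1.12 and 1.24. Against NKT1 cells alone, Fasl differed by 3.1 and Gpr34 by 1.98.

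Among genes that fell, Arhgap24 differed by -9.24 from NKT1 and by -3.95 from NKT17 cells, the former resting on a gene with at most a few reads in WT NKT1 cells. Jag1 differed by -3.6 and -4.12, Fut7 by -4.2 and -1.7, Ttc39c by -2.11 and -4.55, Fam129a by -1.77 and -1.3, and Slc29a1 by -1.93 and -0.84. Against NKT1 cells alone Trf differed by -4.54 and Il4, which was not called in NKT2 cells, by -2.25. Against NKT17 cells alone Sox13 differed by -3.2 and Eng by -1.5.

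Other genes differed from both subsets, and the value for NKT1 cells is given first. For receptors and surface proteins, Ccr8 differed by 2.11 and -1.92, Ccr10 by -3.08 and -4.05, Cxcr6 by 0.73 and 0.74, Itgb7 by 0.6 and 0.71, Il7r by 1.14 and 0.93, Il21r by 0.85 and 1.26 and Tgfbr2 by 0.91 and 0.6. For cytokines, Ltb differed by 1.66 and 0.94 and Tnf by 1.31 and 1.35. For enzymes, regulators and a channel, Nt5e differed by 1.95 and 1.04, Ubash3a by 1.29 and -1.77, Bik by 2.49 and 1.87 and Aqp3 by 2.04 and 1.85. For nuclear factors, Lef1 differed by -0.9 and 2.09 and Arntl by 1.46 and 1.3, and Gm1337 differed by -8.69 and -3.56.

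Against NKT1 cells alone, genes of TCR signalling and its restraint differed as follows, Themis by -5.61, Trat1 by 1.64, Cd247 by -0.7, Cish by 1.62, Dgka by 0.95, Grap by 1.04, Sit1 by 0.61, Sla2 by -0.68, Ptpn22 by 1.04, Spry2 by -1.81 and Nfatc1 by -0.75. Genes of the NF-κB system differed in the same comparison, Nfkb2 by 1.24, Relb by 1.49, Nfkbia by 0.96 and Nfkbie by 0.76. Surface and secreted proteins differed as well, Cd2 by 2.4, Cd44 by 1.01, Cd40lg by 0.85, 4632428N05Rik by 0.73, Lag3 by 5.3, Tnfsf11 by -2.78, Klrb1f by 2.65, Ly6c2 by 2.07, Ly6e by -0.81 and Il13 by -4.98. Replication and cell division genes differed from NKT1 cells, Mcm5 by -0.89, Mcm6 by -0.86, Mcm7 by -0.89 and Stmn1 by -1.03, as did enzymes, Oas3 by -1.44, Tpi1 by -0.61, Pfkfb3 by -0.9, Sc5d by 0.78, Phgdh by -1.19 and Acly by -0.9, and the factor Stat4 by 2.96. Themis, Lag3, Il13 and Gm1337 had an NKT1 group near 0 CPM, and Klrd1 a WT NKT17 group near 0, so these differences depend on how the fit treats counts near 0.

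Against NKT17 cells alone, Id3 differed by 1.32, Ikzf2 by -2.16, Rora by 1.02, Irf8 by 2.58 and Nr1d1 by 2.22 among nuclear factors, Icos by -0.65, Klrd1 by -4.71, Klrk1 by -5.34 and Cd84 by 0.61 among surface receptors, and Rasgrp1 by 0.96 and Cst7 by -0.82 among other genes. Irf8, Cd84 and Sc5d were not called in NKT2 cells.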

How the results depend on the processing

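The number of genes called in SKG against WT NKT2 cells, 884, was 978 with DESeq2, 890 with RLE and with upper-quartile scaling, 814 with no filter, 682 with a mean of at least 50 counts, 1109 with the 6 libraries alone, 695 at an adjusted p under 0.05 and 1270 with no fold minimum, and 706 to 822 when 1 library was left out. The share of rises among the calls was 49.1%, and 45.95% to 57.18% over these settings. DESeq2 shared 866 calls with edgeR. For NKT2 libraries of the same title token, the correlations of their deviations from the group means were 0.03 and -0.151. Those of unlike tokens ran from -0.114 to 0.159. With so few libraries these values do not decide whether the tokens pair them, and the labels do not say what the token marks. With the replicate block by title token, 1044 genes were called, 57.18% of them higher, and 756 of these were among the 884. The libraries of tokens found in both genotypes, chosen after the data were seen, gave 654 calls. The differences of effect depended more on this choice, with 179 in place of 430 genes against NKT1 and 84 in place of 244 against NKT17, where an adjusted p under 0.05 left 155. When 1 library was left out they numbered 331 to 376 and 166 to 218. Of 164 genes chosen by the naming rule, 130 were called, 98 of these under every setting, and 25 lost the call without some library. Another 11 were not called but were under some setting, among them Ccr7, Cd4 and Slamf6 with the 6 libraries alone and Il4 (adjusted p 0.048), Cd4 (0.0517) and Junb (0.0454) under the block, where Ptpn22 and Il18r1 lost the call. The log2 fold change of Xist reversed from -0.2 to 8.645 under the block, since 1 library of each genotype is high for Xist. At these depths the call of Prf1, with at most 12 counts per library, rested on single libraries, while those of Klra7 and Bcl2a1a did not.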

Other observations

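The genes given here are in none of the fixed lists and were chosen after their values were seen. Nt5e (CD73), which forms adenosine from AMP at the cell surface, was at 35.0, 26.7 and 28.8 CPM in WT and 92.1, 85.0 and 90.6 CPM in SKG (log2 fold change 1.57, SE 0.17, adjusted p 7.69e-07), and Cd38, which degrades NAD, fell from 26.6, 31.6 and 27.5 CPM to 8.59, 5.29 and 9.31 CPM (log2 fold change -1.88, SE 0.25, adjusted p 2.72e-05). Phgdh, the first enzyme of serine synthesis, was at 974, 972 and 900 CPM against 449, 499.8 and 449 CPM (log2 fold change -1.03, SE 0.12, adjusted p 2.93e-06), and Acly, which makes cytosolic acetyl-CoA, at 623, 710.4 and 549 CPM against 284, 326 and 334 CPM (log2 fold change -1.0, SE 0.12, adjusted p 4.88e-06).

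Nr1d1 (REV-ERBα), a repressor of the circadian clock, was also chosen after its values were seen, as were the other genes that follow. It was at 8.79, 5.24 and 5.17 CPM in WT and 25.3, 39.7 and 35.3 CPM in SKG (log2 fold change 2.40, SE 0.25, adjusted p 1.08e-06), and Arntl (BMAL1), whose transcription Nr1d1 represses, was at 31.7, 21.7 and 24.9 CPM and 46.0, 49.9 and 50.1 CPM (log2 fold change 0.90, SE 0.14, adjusted p 0.000205). The labels give no time of day for the sorts. Ptpn5, a tyrosine phosphatase known from neurons, fell from 146, 114 and 199.8 CPM to 14.8, 8.61 and 17.3 CPM (log2 fold change -3.49, SE 0.32, adjusted p 2.87e-07), and Prg4, which encodes the joint lubricant lubricin, from 172, 215 and 135 CPM to 31.7, 22.9 and 15.9 CPM (log2 fold change -2.89, SE 0.26, adjusted p 8.88e-08).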
